A study of Homo sapiens with 6 samples.

Results

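The genes described here are the members of 7 solute carrier families that hold the amino acid transporters of the plasma membrane: SLC1A, SLC3A, SLC6A, SLC7A, SLC16A, SLC38A and SLC43A. Members were taken by the start of the gene symbol, from probe sets that GEO's platform annotation gives a single symbol, and each gene is represented by the probe set whose log2 signal, averaged over all arrays, was highest. This gave 49 of the 11963 genes on the array with such a probe set: 7 of SLC1A, 2 of SLC3A, 15 of SLC6A, 10 of SLC7A, 5 of SLC16A, 8 of SLC38A and 2 of SLC43A. The families are wider than their name, since SLC16A also holds carriers of lactate and other monocarboxylates, and SLC6A also holds carriers of neurotransmitters, taurine and creatine. Membership rests on the gene symbol alone, so not every member need act at the plasma membrane. RNA came from NCI-H295A cells, 1 established line of human adrenocortical carcinoma that makes steroids, so no value here speaks for other adrenal cells. Control plates (3 arrays) and plates kept with 8-Br-cAMP at 1 mM for 18 h (3 arrays) shared an RPMI medium with insulin, selenium, gentamicin and 2% fetal calf serum, and no vehicle for the controls is named. 8-Br-cAMP is a cAMP analogue that enters cells, and the series concerns the control of P450c17 and of androgen synthesis.

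Cells take up most amino acids through a few kinds of carrier. Sodium-driven carriers of the SLC1A and SLC38A families concentrate glutamate, glutamine, alanine and serine in the cell, and exchangers of the SLC7A family then trade these for other amino acids. Several SLC7A light chains reach the membrane only as a pair with an SLC3A heavy chain, and genes of this system are among the known targets of the amino acid response through the kinase GCN2 and the transcription factor ATF4. In steroid-making cells the same amino acids feed protein synthesis, glutathione and the mitochondria.

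The promoters of the 3 tested members with the smallest adjusted p in the paired fit (limma with the sample number as a block, explained with the counts) are shown because cAMP acts on many genes through CREB, a factor that binds the cAMP response element. Each run is the 250 bases before the RefSeq gene start, 5′ to 3′ on the gene's strand in GRCh38.p14: chrX:153687676-153687925 on the plus strand for SLC6A8, chr13:29595689-29595938 on the minus strand for SLC7A1 and chr2:64988229-64988478 on the plus strand for SLC1A4. Capitals mark matches to 3 motifs searched on both strands: the full element TGACGTCA, its half-site TGACG, which also lies within the full element, and TGATGCAA, a form of the site bound by ATF4 with C/EBP factors.
SLC6A8: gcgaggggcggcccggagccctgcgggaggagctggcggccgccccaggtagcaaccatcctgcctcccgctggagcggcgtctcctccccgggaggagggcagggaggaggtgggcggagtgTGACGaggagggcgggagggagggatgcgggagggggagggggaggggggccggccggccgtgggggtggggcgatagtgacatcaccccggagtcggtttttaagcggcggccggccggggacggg
SLC7A1: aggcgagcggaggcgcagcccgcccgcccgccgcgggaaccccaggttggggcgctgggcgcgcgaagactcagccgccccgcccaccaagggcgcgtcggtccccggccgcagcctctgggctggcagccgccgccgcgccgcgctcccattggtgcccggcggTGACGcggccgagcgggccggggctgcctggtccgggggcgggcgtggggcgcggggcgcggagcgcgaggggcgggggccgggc
SLC1A4: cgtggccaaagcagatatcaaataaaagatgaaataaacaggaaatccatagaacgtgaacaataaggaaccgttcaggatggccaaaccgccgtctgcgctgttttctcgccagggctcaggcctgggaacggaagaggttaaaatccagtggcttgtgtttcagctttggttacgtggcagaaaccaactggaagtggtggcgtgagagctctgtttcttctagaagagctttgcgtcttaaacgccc
SLC6A8 and SLC7A1 each held 1 half-site, starting 127 and 85 bases before the gene start, and SLC1A4 held no match. Of the 27 tested members 23 had a promoter in the table (SLC1A2, SLC43A3, SLC7A11 and SLC7A4 had none), and 9 of the 23 held the half-site, against 21.7% of all 27305 promoters. None of the 23 held the full element, found in 1.77% of all promoters, and 1, SLC1A3, held TGATGCAA, found in 0.82%. These are matches of letters in this window only, and binding was not measured.

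The arrays numbered 1 stood apart in both groups. The actin 3'/5' signal ratio, which climbs as RNA is degraded, reached 5.72 for control 1 and 38.8 for 8-Br-cAMP 1, while the remaining 4 arrays had ratios of 1.93 to 2.41. Members that pass without both number 1 arrays are therefore given as well. Adrenocortical markers were present, with 8 of 8 above the filter level on average (STAR, CYP17A1 and HSD3B2 at signals of 895.9 or more on every array). Of other cell types, 1 of 5 chromaffin (CHGB), 2 of 5 endothelial (PECAM1 and VWF), 2 of 5 fibroblast (COL1A1 and DCN) and 1 of 5 leukocyte markers (CD3E) were above it. CHGB, COL1A1 and DCN were above it on every array, and TH, DBH, CDH5, PTPRC and LYZ were below it on average. The filter level was a signal of 45.5, the 40th percentile of mean log2 signals (5.51). Summed signals ran from 6176.4 to 21528.5 on controls and 17594.7 to 37802.5 after 8-Br-cAMP for the adrenocortical list, from 164.7 to 318.6 and 172.7 to 292.9 for the chromaffin list, from 183.4 to 231.4 and 304.7 to 419.4 for the endothelial list, from 187 to 395.2 and 224.6 to 276.7 for the fibroblast list, and from 65.9 to 102 and 75 to 217.8 for the leukocyte list. The endothelial sums did not overlap, and VWF was the member higher on every treated array, with signals of 13.2, 17.8 and 123.8 on controls and 292.3, 224.5 and 289.2 after 8-Br-cAMP (paired limma adjusted p = 0.0493). VWF passed the filter only through its treated arrays, with mean log2 signals of 4.94 on controls and 8.06 after 8-Br-cAMP. No support is drawn from that p-value. TEK of the same list, below the filter level on average, went the other way without overlap, with signals of 106, 60.7 and 68.1 on controls and 11.3, 20.7 and 14.2 after 8-Br-cAMP. CDH5 lay between 1.6 and 11.5 on all arrays. Whether these markers bear on the results below was not tested. Scanned signals of different genes are not comparable as levels, so each gene is compared with itself.

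After 8-Br-cAMP the creatine carrier SLC6A8 rose 2.69-fold, and it was the 1 member of 27 tested that passed with all arrays, in the paired fit and not in the unpaired one. The neutral amino acid carrier SLC1A4 and the cationic amino acid carrier SLC7A1 had 1.79-fold and 1.80-fold higher mean signals, and the glutamate carrier SLC1A3 a 2.70-fold lower mean signal, but these missed the threshold in both fits of all arrays as deposited and passed it without the number 1 arrays. In the paired fit on the spike-in scale SLC1A3 (-1.81, limma adjusted p = 0.0353) and SLC16A7 (-1.03, 0.0486) passed beside SLC6A8, with 8.96% of tested genes called. Differences were tested with limma on log2 signals over all 13329 probe sets above the filter level, two-sided, with Benjamini-Hochberg adjustment. Without regard to sample number limma called 0 of the 27 members and 0% of the 7927 tested genes. At an unadjusted p under 0.05 it gave 5 members (18.5%), against 11.9% of all tested genes. Of these 4 were higher, against 4.09% of genes, and 1 was lower, against 7.86%. The split depended on the scaling: spike-in scaling gave 0 higher and 6 lower, against 1.6% and 20.1% of genes, and variances without trend gave 2 and 3. An unmoderated test gave 3 members at that threshold, against 12.3% of genes, and 0 after adjustment. In the paired fit, which takes the sample number as a replicate block, 1 of 27 members passed (3.7%), a share near that among all tested genes (3.68%, with 1.73% higher). Unadjusted, that fit gave 12 members (44.4%), against 22.4% of genes, with 6 higher (7.8% of genes) and 6 lower (14.6% of genes). That split became 8 and 1 with a common median, against 13.2% and 7.2% of genes, and 1 and 12 with spike-in scaling, against 2.79% and 35.4%. Omitting both number 1 arrays, the unpaired fit passed 12 members (44.4%), against 33.3% of all tested genes. Of these, 7 were higher (25.9% of members, against 12.8% of genes) and 5 lower (18.5%, against 20.5%). At an unadjusted p under 0.05 the same fit gave 15 members, against 45.3% of genes (16.4% higher and 28.9% lower). That fit rests on the 4 arrays numbered 2 and 3, and the split of 7 higher and 5 lower moved with the scaling. It was 6 and 5 after quantile normalization (13.4% and 16.5% of genes), 9 and 1 with a common median (20.8% and 7.58%), and 4 and 8 on a scale set by hybridisation spike-ins (7.76% and 31.2%), so the share called lower among all genes moved the same way. Across these 4 scalings 5 members passed each time in 1 direction: SLC6A8, SLC7A1, SLC1A4 and SLC38A2 higher, and SLC1A3 lower. The design text speaks of 3 plates and of separate experiments without tying them to sample numbers, so p-values measure the spread between these samples only, which may be technical.

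**Figure D1:**
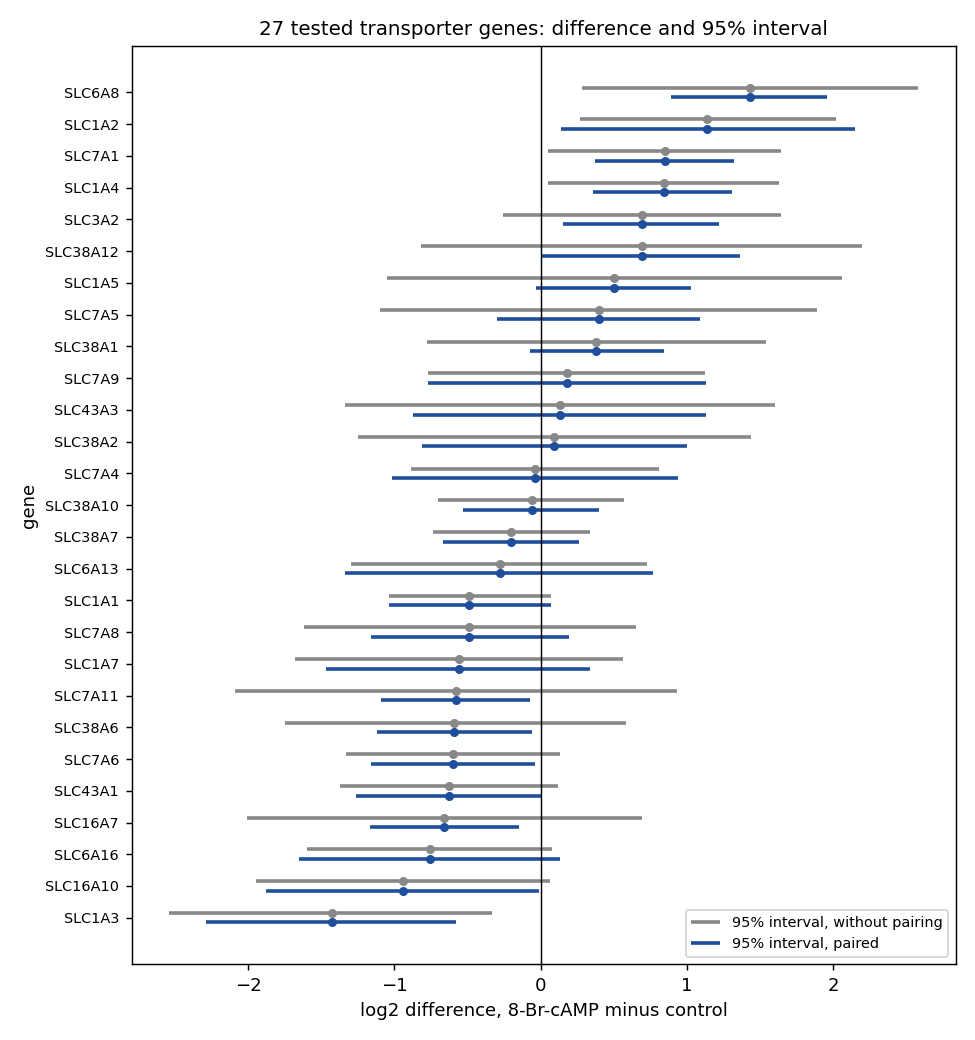
Log2 difference (8-Br-cAMP minus control, x axis) of each of the 27 tested genes (y axis), with points for the difference and bars for limma's 95% interval without pairing (grey) and with the sample number as a block (blue), 3 arrays per group. SLC6A8 is at the top at 1.43 and SLC1A3 at the bottom at -1.43.

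The median log2 difference of the 27 members was -0.06, beside -0.14 over all tested genes, and 12 members had a positive and 15 a negative difference. The signals of both groups did not overlap for 9 members (33.3%), 3 higher and 6 lower after 8-Br-cAMP, against 19.9% of all tested genes (6.32% higher, 13.6% lower). All 3 pairs differed in 1 direction for 18 members (66.7%), against 44.7% of tested genes, with 8 higher (15.2% of genes) and 10 lower (29.5%), while in 7 members (25.9%) pair 1 was opposite to pairs 2 and 3, against 34.4%. The design text of the series selected changes of at least 2-fold at an unadjusted p under 0.05. By limma 3 members met that selection (11.1%, against 7.01% of tested genes): SLC6A8, SLC1A2 and SLC1A3. With an unmoderated test 1 member, SLC1A2, met it, against 4.87% of genes. SLC1A2 passed the filter level of 5.51 only through its treated arrays, with mean log2 signals of 4.94 on controls and 6.08 after 8-Br-cAMP. Counts of higher members above also hold SLC1A2, except the paired call and those on the spike-in scale or after quantile normalization. SLC16A10 and SLC6A16, lower without overlap, passed the filter only through their controls. Both also enter other lower counts above, among them the 6 with spike-in scaling, the 3 without trend and the 10 in all pairs. The 6 lower at unadjusted p under 0.05 in the paired fit include SLC16A10.

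SLC6A8, which brings creatine into the cell with sodium and chloride, was higher on each 8-Br-cAMP array than on any control by its chosen probe set. Its signal was 296.4, 186.6 and 120.5 on controls 1, 2 and 3, and 937.6, 394.5 and 349 on 8-Br-cAMP 1, 2 and 3. Within each group the number 1 array was the highest, and the rise was of like size in every pair, at 1.66, 1.08 and 1.53 on the log2 scale. Mean log2 signals were 7.56 ± 0.65 and 8.98 ± 0.78 (SD, n = 3). The log2 difference was 1.43 (95% interval 0.28 to 2.58, limma adjusted p = 0.333), and 0.89 to 1.96 with adjusted p = 0.0291 in the paired fit. Its other kept probe sets differed by 1.52 (paired limma adjusted p = 0.0222) and 1.21 (0.0832). The latter had overlapping groups, with signals of 310.5, 95.2 and 34.4 on controls and 619.1, 157.8 and 128.8 after 8-Br-cAMP. That probe set also missed the threshold without both number 1 arrays (1.32, limma adjusted p = 0.0585). The paired call of the chosen probe set was lost without an intensity trend in the variances (limma adjusted p = 0.0671) and without pair 3 (0.085). Without both number 1 arrays SLC6A8 rose by 1.31 by the chosen probe set (limma adjusted p = 0.00354). By their identifiers 2 of the 3 probe sets, the chosen one among them, may bind related transcripts, and the one at 1.21 is not so marked. A probe set that the annotation also gives to the SLC6A10P copies had signals of 226.5, 172.8 and 143.2 on controls and 605.7, 266.4 and 174.9 after 8-Br-cAMP. Its groups overlap. Signal from these copies cannot be told apart from that of SLC6A8 here.

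**Figure D2:**
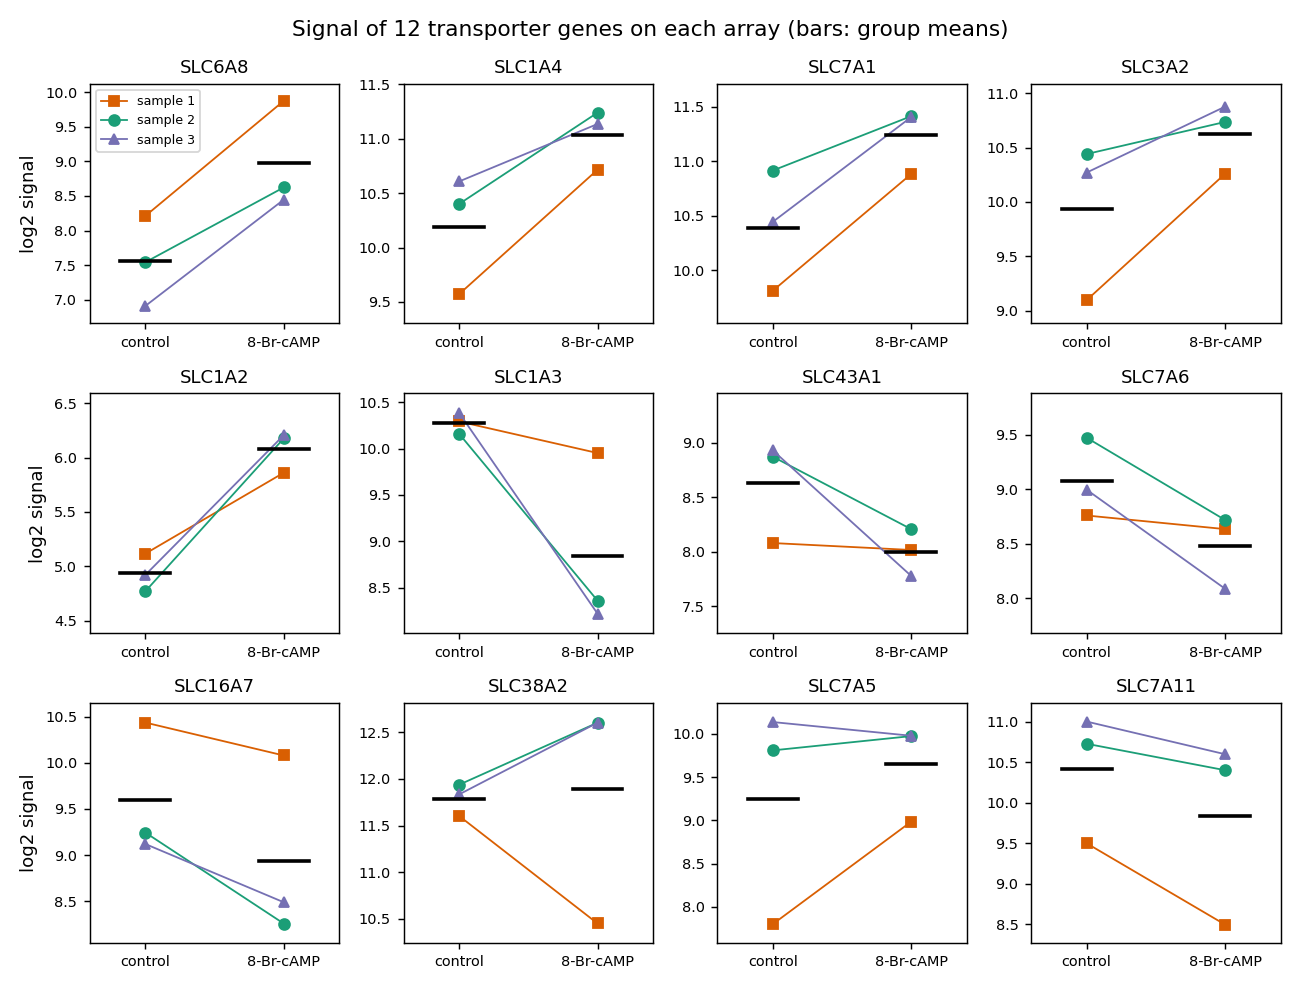
Log2 signal (y axis) of 12 genes on each control and 8-Br-cAMP array (x axis), with lines joining same-numbered samples and black bars for group means (n = 3). SLC6A8 runs upward in each pair, SLC1A3 runs downward steeply only in samples 2 and 3, and the sample 1 line of SLC38A2 runs against the others.

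Glutamate is taken up by the sodium-driven SLC1A carriers, and their differences had no common sign. SLC1A3 (EAAT1) is best known from glial cells. Its signal was 1253.2, 1143.8 and 1337.1 on controls and 990.1, 328.9 and 298.4 after 8-Br-cAMP. Every treated array lay below every control, but 8-Br-cAMP 1 only narrowly. It differed by -1.43 (95% interval -2.54 to -0.33, limma adjusted p = 0.314 and 0.0847 paired), made up of -0.34 in pair 1, -1.80 in pair 2 and -2.16 in pair 3. Without both number 1 arrays SLC1A3 fell by 1.98 on the log2 scale (limma adjusted p = 3.4e-05), and it also passed without 8-Br-cAMP 1 alone (-1.99, limma adjusted p = 0.0204). SLC1A2 (EAAT2), the main glutamate carrier of astrocytes, had signals of 34.7, 27.3 and 30.3 on controls and 58.1, 72.3 and 73.8 after 8-Br-cAMP. The groups did not overlap, but all controls lay below the filter level, so the difference of 1.14 (0.27 to 2.02, limma adjusted p = 0.309) is imprecise. Without the number 1 arrays SLC1A2 rose by 1.34 (limma adjusted p = 0.0427), a call absent on the spike-in scale and not made after quantile normalization, where SLC1A2 fell under the filter. Other probe sets of SLC1A2 lay below the filter level on every array. They were higher in pair 1 (2.61 and 0.67) and lower in pair 2 (-0.71 and -1.19) and pair 3 (-0.57 and -2.81). SLC1A1 (EAAT3), which also carries cysteine, had signals of 173.6, 179 and 158.4 on controls and 114.9, 123.9 and 126 after 8-Br-cAMP. These were lower in all 3 pairs without overlap, with a difference of -0.49 (-1.04 to 0.07, limma adjusted p = 0.526). SLC1A7 (EAAT5), a retinal carrier, differed by -0.56 with overlapping groups.

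The neutral amino acid exchangers of the same family, SLC1A4 and SLC1A5, had positive differences. SLC1A4 (ASCT1) carries alanine, serine and cysteine. Its signal was 760.8, 1350.9 and 1559 on controls and 1680.6, 2416.3 and 2248.1 after 8-Br-cAMP. Every treated array lay above every control, with the number 1 array lowest in each group. The log2 difference was 0.84 (0.05 to 1.63, limma adjusted p = 0.425 and 0.0774 paired), its 4 kept probe sets gave 0.63 to 0.87, and without the number 1 arrays it rose by 0.68 (limma adjusted p = 0.00311). SLC1A5 (ASCT2), a main route of glutamine, had signals of 178.1, 713.4 and 775.8 on controls and 338.1, 902.6 and 918.2 after 8-Br-cAMP. Each pair was higher after treatment, by 0.92, 0.34 and 0.24, yet both number 1 arrays lay far below the rest and the groups overlapped (0.50, 95% interval -1.05 to 2.06, limma adjusted p = 0.861). Without control 1 the difference was -0.19.

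The heavy chain SLC3A2 (CD98), which carries several SLC7A light chains to the membrane, had signals of 548, 1389.2 and 1234.6 on controls and 1225.5, 1704.5 and 1878.7 after 8-Br-cAMP. It was higher in all pairs (1.16, 0.30 and 0.61), while 8-Br-cAMP 1 lay among the controls. On the log2 scale it differed by 0.69 (-0.26 to 1.64, limma adjusted p = 0.608 and 0.153 paired), and without the number 1 arrays SLC3A2 rose by 0.45 (limma adjusted p = 0.0186). That call was absent after quantile normalization and on the spike-in scale.

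Of the tested light chains that pair with SLC3A2, SLC7A5 had a positive difference over all arrays, and SLC7A8, SLC7A6 and SLC7A11 had negative ones. SLC7A5 (LAT1) imports leucine and other large neutral amino acids. Its signal was 223.1, 897.2 and 1125.7 on controls and 507.3, 1006 and 1008.6 after 8-Br-cAMP. Control 1 was the lowest array by far, so the difference of 0.40 (-1.10 to 1.89, limma adjusted p = 0.893) came from pair 1 (1.19), with 0.17 and -0.16 in pairs 2 and 3, and without control 1 it was -0.33. SLC7A8 (LAT2), a like exchanger with a wider range of neutral amino acids, had signals of 374.6, 291.7 and 209.2 on controls and 416.3, 139.9 and 142.2 after 8-Br-cAMP. Pair 1 differed by 0.15, and pairs 2 and 3 by -1.06 and -0.56. SLC7A6 (y+LAT2), which trades arginine for glutamine, had signals of 433.5, 711.2 and 510.9 on controls and 397.5, 421.3 and 271.9 after 8-Br-cAMP. The groups did not overlap (-0.60, -1.33 to 0.13, limma adjusted p = 0.554), though another of its 3 kept probe sets differed by 0.19. Without the number 1 arrays SLC7A8 fell by 0.81 (limma adjusted p = 0.0193) and SLC7A6 by 0.83 (0.0289). Both calls were absent with a common median, and that of SLC7A8 also after quantile normalization. Without the number 1 arrays the other kept probe set of SLC7A8 fell by 1.03 and missed the threshold (limma adjusted p = 0.061). Leaving out the same arrays, SLC7A5 differed by 0 (limma adjusted p = 0.987) and SLC7A11 by -0.36 (0.0651).

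SLC7A11 (xCT), which imports cystine for glutathione in exchange for glutamate, had signals of 722.9, 1694.3 and 2048.7 on controls and 360.5, 1351.1 and 1549.1 after 8-Br-cAMP. It was lower in every pair (-1, -0.33 and -0.40), with the number 1 arrays lowest in both groups and overlap between them. The log2 difference was -0.58 (-2.09 to 0.93, limma adjusted p = 0.831 and 0.190 paired), and its 3 kept probe sets gave -0.58 to -0.22. SLC7A9, the light chain of renal cystine uptake, had pair differences of 1.19, -0.64 and -0.02.

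SLC7A1 (CAT1), the common uptake route of arginine and lysine, works without a heavy chain. Its signal was 899, 1932 and 1393.6 on controls and 1890.8, 2731.4 and 2716.5 after 8-Br-cAMP. It was higher in all pairs (1.07, 0.50 and 0.96), and only control 2 overlapped with 8-Br-cAMP 1. The log2 difference was 0.85 (0.05 to 1.64, limma adjusted p = 0.426 and 0.0741 paired). Of its other 3 kept probe sets, those with differences of 1.31 and 1.28 went the same way and 1 went the other way (-0.22). Without the number 1 arrays SLC7A1 rose by 0.73 (limma adjusted p = 0.00853). SLC7A4, a relative of the cationic carriers, differed by -0.04 (-0.89 to 0.81), a sign that turned with a common median.

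**Figure D3:**
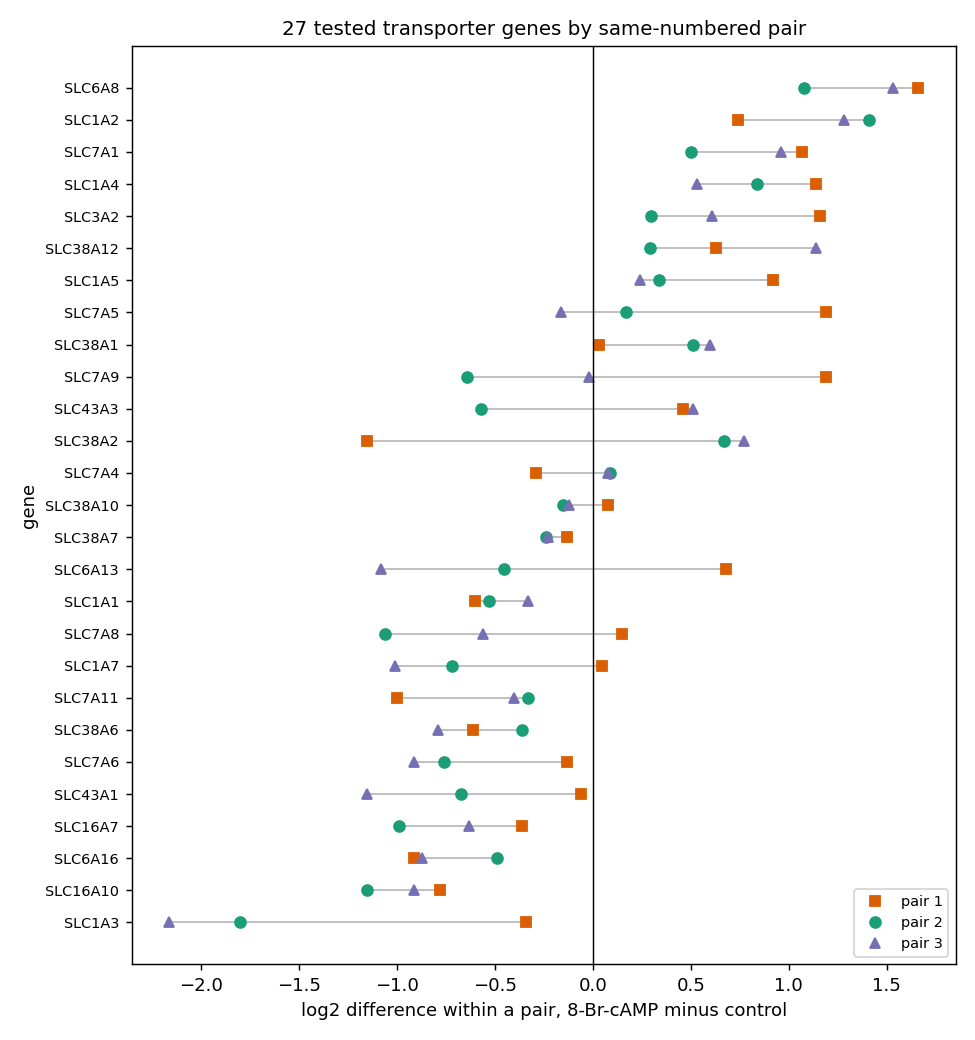
Log2 difference between same-numbered arrays (8-Br-cAMP minus control, x axis) for each of the 27 tested genes (y axis), with a square, circle and triangle for pairs 1, 2 and 3. Pair 1 of SLC38A2 lies at -1.15 while pairs 2 and 3 lie at 0.67 and 0.77, and all 3 points of SLC6A8 lie above 1.

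Sodium-driven carriers of the SLC38A family, SLC38A1 and SLC38A2 among them, bring in glutamine, alanine and other small neutral amino acids. SLC38A2 (SNAT2), whose gene is induced when amino acids run short, had signals of 3112.2, 3923.4 and 3651 on controls and 1398.7, 6223.4 and 6224.6 after 8-Br-cAMP. Arrays 2 and 3 after treatment were the highest of all and 8-Br-cAMP 1 the lowest of all. The log2 difference of 0.09 (-1.25 to 1.44, limma adjusted p = 0.979) had no stable sign, being -0.07 after quantile normalization and -0.28 on the spike-in scale. Without the number 1 arrays SLC38A2 rose 1.64-fold (0.72, limma adjusted p = 0.00118), and its other probe set also had 8-Br-cAMP 1 as the lowest array and 8-Br-cAMP 2 and 3 as the highest. SLC38A1 (SNAT1) had signals of 1841.7, 3786.1 and 3576.9 on controls and 1877.3, 5410 and 5435.9 after 8-Br-cAMP. Pair 1 differed by 0.03, and pairs 2 and 3 by 0.51 and 0.60, with a rise of 0.56 without the number 1 arrays (limma adjusted p = 0.00353), a call absent on the spike-in scale.

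Among the other SLC38A members, SLC38A6 was lower in each pair (-0.61, -0.36 and -0.79) with overlapping groups. SLC38A7 had signals of 436.1, 489.2 and 506.7 on controls and 398.8, 413.6 and 430.7 after 8-Br-cAMP, which do not overlap but lie close (-0.20, -0.74 to 0.34, limma adjusted p = 0.835), and its sign turned with a common median (0.02). SLC38A10 differed by -0.06, with a sign that also turned, and SLC38A12 by 0.69 with both number 1 arrays far above the rest.

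SLC43A1 (LAT3), which lets large neutral amino acids pass without sodium or exchange, had signals of 270.7, 469 and 488.1 on controls and 259, 295.6 and 219.4 after 8-Br-cAMP. Pair 1 differed by -0.06, and pairs 2 and 3 by -0.67 and -1.15. Over all arrays it differed by -0.63 (-1.37 to 0.12, limma adjusted p = 0.540), and without the number 1 arrays SLC43A1 fell by 0.91 (limma adjusted p = 0.00531), a call absent with a common median. SLC43A3, a carrier of purine bases in the same family, differed by 0.13 with signals between 28.5 and 118.5.

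Both tested SLC16A members had lower mean signals after 8-Br-cAMP. SLC16A7 (MCT2), a carrier of pyruvate and lactate, had signals of 1387.1, 606.5 and 556.4 on controls and 1082.7, 305.7 and 358.9 after 8-Br-cAMP. Number 1 arrays were the highest in both groups, and each pair was lower (-0.36, -0.99 and -0.63). It differed over all arrays by -0.66 (-2.01 to 0.69, limma adjusted p = 0.755 and 0.148 paired), and without the number 1 arrays SLC16A7 fell by 0.81 (limma adjusted p = 0.00367), a call absent with a common median. Its other kept probe set differed by -0.41 (paired limma adjusted p = 0.332) and missed the threshold without the number 1 arrays (-0.4, limma adjusted p = 0.161). SLC16A10 (TAT1), which carries aromatic amino acids, had signals of 89.2, 69.8 and 52.8 on controls and 52.1, 31.5 and 28.1 after 8-Br-cAMP. The groups did not overlap, though treated arrays 2 and 3 were below the filter level (-0.94, -1.95 to 0.06, limma adjusted p = 0.485). SLC6A16, a relative of the neurotransmitter carriers, also had groups that did not overlap, with a difference of -0.76 (limma adjusted p = 0.504), and the GABA carrier SLC6A13 had pair differences of 0.68, -0.45 and -1.08.

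**Figure D4:**
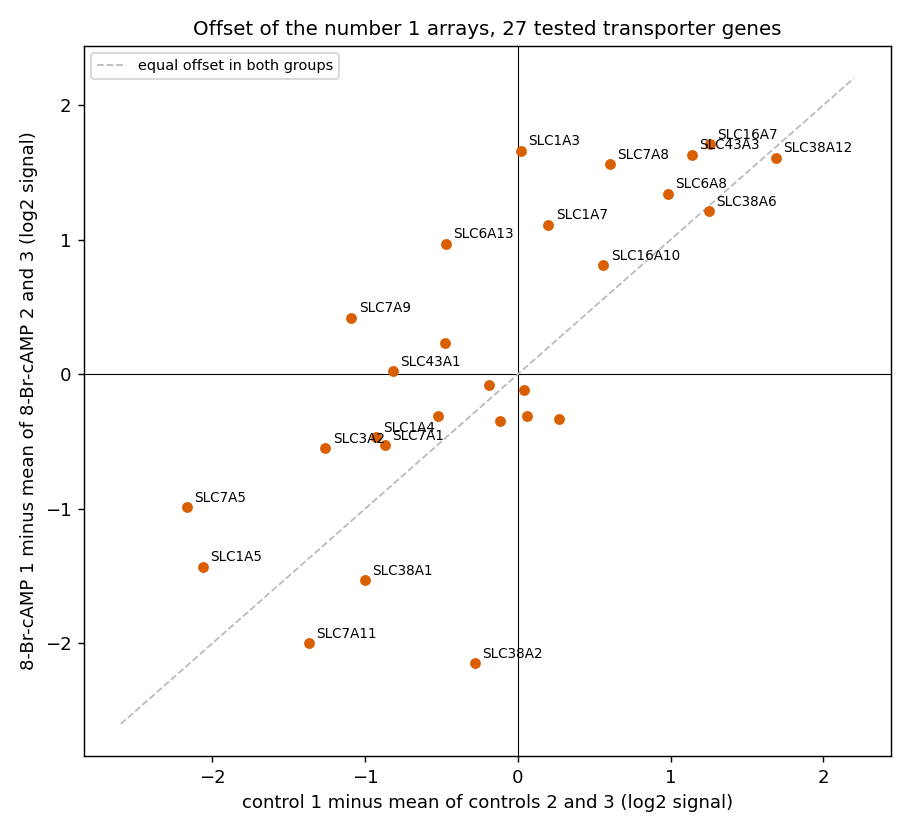
For each of the 27 tested genes, the log2 signal on 8-Br-cAMP 1 minus the mean of 8-Br-cAMP 2 and 3 (y axis) against that on control 1 minus the mean of controls 2 and 3 (x axis); the dashed line marks equal offsets. SLC1A5 and SLC7A11 lie far below 0 on both axes and SLC16A7 and SLC38A12 far above, while SLC38A2 and SLC1A3 are offset mainly on the y axis.

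Offsets of the number 1 arrays were uneven across the transporters. Relative to arrays 2 and 3 of the same group, SLC1A5 was offset by -2.06 on the log2 scale on control 1 and by -1.43 on 8-Br-cAMP 1, and SLC7A11 by -1.37 and -2. SLC16A7, SLC38A6, SLC38A12 and SLC43A3 were at least 2-fold higher in both groups. These 2 members below and 4 above are 7.41% and 14.8% of those tested, against 4.97% and 5.90% of all tested genes. SLC7A5 was offset by -2.17 on control 1 and -0.99 on 8-Br-cAMP 1. SLC38A2 was offset by -0.28 and -2.15, and SLC1A3 by 0.02 and 1.66, so that for these genes the treated number 1 array alone stood apart. The part of RNA quality in these offsets was not tested.

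The 22 members below the filter level were not tested. For 11 of them every array of the chosen probe set lay below 45.5: SLC16A5, SLC1A6, SLC38A4, SLC6A14, SLC6A15, SLC6A20, SLC6A4, SLC6A6, SLC6A7, SLC7A10 and SLC7A2. The serotonin carrier SLC6A4 and the taurine carrier SLC6A6 are in this group, with highest signals of 30.7 and 42.9. Other probe sets of SLC6A6 reached 67.9 on 8-Br-cAMP 2 and 58.1 on 8-Br-cAMP 1. The other 11 had at least 1 array above the level: SLC16A4, SLC16A8, SLC38A3, SLC3A1, SLC6A11, SLC6A12, SLC6A2, SLC6A3, SLC6A5, SLC6A9 and SLC7A7. The glycine carrier SLC6A9 had signals of 10.6, 83.6 and 52 on controls and 5.4, 81 and 64.3 after 8-Br-cAMP, low on both number 1 arrays. SLC1A2 (mean log2 signal 5.51) and SLC7A4 (5.52) were the members just above the level, and SLC6A12 (5.37) and SLC3A1 (5.28) those just below.

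Other genes that sense, use or help to move amino acids were read from 7 lists with 86 different tested genes. Limma called 0 of the 86 without pairing, with 0% of all genes called, and 4 in the paired fit (background 3.68%): PC rose, and SGK1, TXNIP and NUPR1 fell. PC passed the filter only through its treated arrays. With a common median the paired fit called 0 of the 86, against 1.22% of all tested genes. Without the number 1 arrays 17 were higher and 22 lower, against 12.8% and 20.5% of all tested genes. The median log2 difference was -0.72 over the partners and regulators, 0.28 over the amino acid response and between -0.22 and -0.03 over the other 5 lists, beside -0.14 over all tested genes. Among 7 partners and regulators of transporters, TXNIP, which holds back glucose uptake, had signals of 746.7, 1319.8 and 1348.2 on controls and 282, 409.3 and 416.6 after 8-Br-cAMP, a fall of 1.60 on the log2 scale (paired limma adjusted p = 0.0151). SGK1, a kinase that keeps carriers at the membrane, fell in each pair (paired limma adjusted p = 0.0262). BSG, the partner of SLC16A carriers, differed by 0.23 (-0.38 to 0.85).

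Of 17 genes of the amino acid response, 1 passed the paired fit, against 3.68% of all tested genes. NUPR1, a small stress-response nuclear protein, had signals of 95, 951 and 844.3 on controls and 13.8, 356.5 and 340.4 after 8-Br-cAMP, and fell in each pair (paired limma adjusted p = 0.0439). ATF4 itself had signals of 1266.2, 2975.4 and 3106.2 on controls and 2124.2, 4598.9 and 4649.2 after 8-Br-cAMP, higher in every pair (0.75, 0.63 and 0.58; paired limma adjusted p = 0.0914). ASNS, the asparagine synthetase gene that is a standard target of ATF4, differed by -0.04, -0.33 and -0.16. Elsewhere in the list, TRIB3 (0.61, 0.93 and 1.21), PPP1R15A (0.93, 0.9 and 0.78) and DDIT3 (1.26, 0.65 and 0.5) were higher in each pair. Their paired limma adjusted p lay between 0.0608 and 0.103. CHAC1 (0.46, -0.41 and -1.07) and FGF21 (1.32, -2.77 and -1.9) were lower in pairs 2 and 3 only. Apart from NUPR1, the genes named here were chosen after their values were seen. Without the number 1 arrays 8 of the 17 were higher and 3 lower, against 12.8% and 20.5% of all tested genes. Like several transporters, ATF4, NUPR1 and ASNS (841 on control 1, 5665.6 and 5166.1 on controls 2 and 3) were lowest on the number 1 arrays of each group.

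Among 12 genes of lactate and pyruvate handling, PC, which makes oxaloacetate from pyruvate, had signals of 163.2, 16.6 and 15.5 on controls and 484.7, 185.1 and 158.5 after 8-Br-cAMP. It rose by 2.80 on the log2 scale (paired limma adjusted p = 0.0290), from controls 2 and 3 below the filter level. Its mean log2 signals were 5.12 on controls, below the filter level of 5.51, and 7.92 after 8-Br-cAMP. In the lists with no call in either fit, the genes with the smallest unadjusted p in the unpaired fit were as follows. Of 20 genes of amino acid sensing by mTORC1, WDR59 differed by -0.90 and NPRL2 by -0.89, neither with overlap between groups. These belong to the GATOR complexes that relay amino acid levels to mTORC1. Of 19 enzymes, PHGDH, the first step of serine synthesis, differed by -0.84 without overlap and OAT, ornithine aminotransferase, by -0.50. Of 9 genes of cystine use and glutathione synthesis, CTH, which makes cysteine, differed by 0.99 without overlap and GCLM, a subunit of glutamate-cysteine ligase, by 0.51. Of 5 other amino acid and vesicular transporters, SLC66A1 differed by -0.78 and the vesicular glutamate carrier SLC17A7 by -0.75. Paired limma adjusted p for these 8 genes lay between 0.0718 and 0.454.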

How the data were processed

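The members and gene lists were chosen with earlier results of these data known. The deposited values are signal intensities for 22277 probe sets on each of 6 arrays, made by the authors with GCOS 1.3 per the submitters' processing notes. Trimmed means of the 6 columns ran from 249.996 to 250.155, so the deposited intensities were used as scaled, and such scaling hides a change shared by most transcripts. Of 22215 probe sets other than array controls, 19064 had 1 symbol in GEO's platform annotation, 1043 had several and 2108 were not listed. SLC16A1 is not analysed here.

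Signals were taken to log2, and probe sets above the 40th percentile of mean log2 signal were kept. The tests used limma 3.58.1 (R 4.3.3; lmFit, eBayes with an intensity trend, two-sided, Benjamini-Hochberg over 13329 kept probe sets, threshold 0.05), with no pairing in the main design. Over all kept probe sets, the deviation of a control array from its group mean correlated with that of its same-numbered treated array at 0.603 (number 1), 0.378 (number 2) and 0.538 (number 3). Control 3 correlated with treated 2 at 0.547 and control 2 with treated 3 at 0.312, so the data set number 1 apart but do not tie number 2 to 2 and 3 to 3. With each same-numbered value over 0.1, the paired fit treats the numbers as pairs, on the basis of the data and not of the labels.

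Members were named if they passed either fit, if their groups lay apart at a log2 difference of 1 or more, or from a fixed set, and the remaining tested members are given too. From the other lists, genes that passed either fit were named, and otherwise the 2 with the smallest unadjusted p. Fits were also run on data simulated with the sample numbers as pairs, and no outcome of that is used here. Alternatives covered scaling, filter, low signals, variances, pairing, left-out arrays and the choice of probe set. Precision is limited by there being 3 arrays per group.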

Additional observations from a re-analysis of the deposited data

Results flagged for a closer look

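SLC7A2, a cationic amino acid carrier, was below the filter level and entered none of the main comparisons, yet every 8-Br-cAMP array lay above every control. Its signal was 4.4, 6.1 and 1.6 on controls and 6.7, 31.3 and 43.9 after 8-Br-cAMP, a 5.98-fold difference of means on the log2 scale. All 6 signals lay below 45.5, so the fold is imprecise. With no filter the log2 difference was 2.58, with limma adjusted p = 0.452 unpaired and 0.247 paired.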

How the results depend on the processing

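With the replicate block 1 member was called. The number stayed at 1 when the block was joined with quantile normalization, a common median, no filter, a stricter filter (60th percentile), a floor for low signals, a pseudocount of 16 or robust variances. In these settings 1.22% to 5.37% of genes were called. The number was 3 with spike-in scaling (8.96% of genes) and 0 without trend (0.656%). Leaving out arrays gave 0 to 14 calls: 14 in the paired fit without pair 1 (37.6% of genes), 0 in that without pair 3 (2.51%), and 1 (SLC1A3) without 8-Br-cAMP 1 (2.41%). Without both number 1 arrays there were 12 (33.3%), and 11 with quantile normalization (29.9%), 10 with a common median (28.3%) and 12 with spike-in scaling (39%). Members at an unadjusted p under 0.05 numbered 2 with quantile normalization (10.6% of genes), 3 unmoderated (12.3%) and 1 with probe sets averaged (12.4%). With the block they numbered 12, 8 with quantile normalization, 9 with a common median, 13 with spike-in scaling, 13 with no filter, 9 with the stricter filter, 11 with the floor, 12 with the pseudocount, 11 without trend and 12 robust. The share of genes in these settings ran from 17.5% with no filter to 38.1% with spike-in scaling. Leaving out arrays gave 1 to 16 members, with 10 without 8-Br-cAMP 1 (22.5% of genes), and 15, 13, 14 and 15 without both number 1 arrays on the 4 scales in the order above (45.3%, 41.5%, 40.3% and 48.7%). The members' median was 0.16 with a common median and -0.43 with spike-in scaling, paired or not, and -0.47 to 0.1 with arrays left out. Over all kept probe sets it was -0.13, with -0.03 for quantile, 0.09 for common-median and -0.50 for spike-in scaling. Genes of the other lists called with the block numbered 4, 3 with quantile normalization, 0 with a common median, 10 with spike-in scaling, 4 with no filter, 3 with the stricter filter, 4 with the floor, 4 with the pseudocount, 1 without trend and 4 robust. Leaving out arrays gave 0 to 41, with 2 without 8-Br-cAMP 1, and 39, 36, 32 and 37 without both number 1 arrays on the 4 scales.

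Of the 27 members 17 kept their sign under each alternative in which they were tested, 24 to 34 of the 34. Paired or not, signs turned for SLC38A10 (0 with quantile normalization, 0.16 with a common median), SLC38A2 (-0.07 with quantile normalization, -0.28 with spike-in scaling), SLC38A7 (0.02) and SLC7A4 (0.19) with a common median, and SLC43A3 (-0.24) and SLC7A9 (-0.19) with spike-in scaling. With arrays left out the difference ran from -0.37 to 0.21 for SLC38A10, -0.27 to 1.06 for SLC38A2 (0.81 without 8-Br-cAMP 1), -0.47 to 0.1 for SLC38A7, -0.15 to 0.43 for SLC7A4, -0.41 to 0.51 for SLC43A3, -0.56 to 0.58 for SLC7A9, -1 to 0.11 for SLC6A13 (-0.61 without 8-Br-cAMP 1), -0.19 to 0.98 for SLC1A5, -0.33 to 0.84 for SLC7A5 and -1.03 to 0.09 for SLC7A11. Within these ranges SLC7A4 was at 0.08 without both number 1 arrays, 0.06 without 8-Br-cAMP 1 and -0.11 without 8-Br-cAMP 3, SLC43A3 at -0.06 in the paired fit without pair 3 and -0.26 without number 1 arrays with spike-in scaling, SLC7A5 at -0.09 and -0.23 without number 1 arrays with quantile and spike-in scaling, and SLC7A9 at -0.05 without number 1 arrays with quantile normalization and 0.48 without control 2. The causes were not tested. Leaving out both number 1 arrays under other scalings was added after the data were seen.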

Other observations

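Some members below the filter level were high on single arrays. SLC7A7 (y+LAT1), a light chain that releases cationic amino acids from epithelial cells, had signals of 284.1 for control 1 and 122.1 for 8-Br-cAMP 1, while the remaining 4 arrays had 8 to 11.1. SLC3A1, the heavy chain that pairs with SLC7A9, had a signal of 284.3 on control 1 and 21.8 to 32.2 on the other 5 arrays. The glycine carrier SLC6A5 had 74.8 on 8-Br-cAMP 1 and 5.3 to 7.7 elsewhere. These members were picked after their values were seen.

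A probe set that the annotation gives to SLC7A5 pseudogenes together with SMG1P3 had signals of 71.7, 162.1 and 126.9 on controls and 133.4, 155.4 and 131.5 after 8-Br-cAMP. Control 1 was the lowest array there, as for SLC7A5. Log2 differences over the 27 tested members correlated at 0.88 between pairs 2 and 3, and at 0.48 and 0.52 between pair 1 and pairs 2 and 3 (Pearson, across genes, which are not independent replicates).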
